A study of Mus musculus with 42 samples.

Results

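The 8 genes described here are the Bcl2 family members Bcl2l11, Bbc3, Pmaip1, Bax, Bak1, Bcl2, Bcl2l1 and Mcl1, followed through input and immunoprecipitated RNA of mouse embryonic stem cells. They are 8 of 18825 gene rows in experiment 1 and 8 of 19866 in experiment 2, each with a single row per table, and all 8 passed the filter on low counts in both. Bcl2l11 was selected on its measured IP and input values in tagged and Ago2KO cells of experiment 2, where it was picked as the strongest loss of Tnrc6a association, and the other 7 were added as relatives. Among the genes called in that comparison with a mean log2 CPM (counts scaled to library size) of at least 2, Bcl2l11 was the lowest at a log2 change of -2.03 (SE 0.17). Over all 19778 genes tested, without those limits, it ranked 27 from the lowest. Within those limits the next lowest were a row without a symbol at -1.89 (SE 0.24) and Tmem50b at -1.83 (SE 0.14). Because of that selection the values of Bcl2l11 in experiment 2 are given without a test wherever tagged or Ago2KO libraries enter. It was tested in experiment 1 and in the comparison of Trim71KO with untagged cells of experiment 2, and the other 7 genes were tested everywhere.

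The series measured which RNAs come down with tagged Tnrc6a, and whether this needs the RNA-binding protein Trim71 or the Argonaute protein Ago2. Every group carried the reporter GFP_5xT71BS and a stably transfected FLAG-Cas9 construct with blasticidin resistance, in cells of 129S6/SvEvTac origin kept in serum and LIF. Untagged cells carried nothing further. Tagged cells expressed HA-AVI-Tnrc6a, Trim71KO cells were tagged and Trim71-/-, and Ago2KO cells (experiment 2 alone) were tagged and Ago2-/-. Each of the 14 groups held 3 libraries, as input (lysate RNA) or IP (RNA bound to anti-HA beads). Cells were grown in triplicate, and whether a genotype came from more than 1 clone is not given in the sources used here, so p-values measure the spread between these cultures.

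The Bcl2 family decides whether mitochondria release cytochrome c, the step that commits a cell to apoptosis. BH3-only proteins such as Bim (Bcl2l11), Puma (Bbc3) and Noxa (Pmaip1) carry stress signals, Bax and Bak1 form the pores in the outer mitochondrial membrane, and Bcl2, Bcl-xL (Bcl2l1) and Mcl1 hold both in check. Mouse embryonic stem cells are known as cells primed for apoptosis. Tnrc6a is a GW182 protein, which Argonaute proteins loaded with microRNAs recruit to mRNAs to repress them.

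MicroRNAs were not measured in these libraries. The sequences below are shown because these families are known as regulators of the members with the highest IP values, Bcl2l11 (miR-17, miR-92 and miR-19 families) and Mcl1 (miR-29), and because miR-294, of the miR-290 cluster of embryonic stem cells, is known to target Casp2, which is described further on. They are mature sequences from RefSeq (build GRCm38.p6), 5′ to 3′, with the seed (bases 2 to 8) in capitals, and no target site was searched for.
mmu-miR-17-5p: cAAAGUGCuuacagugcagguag
mmu-miR-20a-5p: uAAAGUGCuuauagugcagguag
mmu-miR-92a-3p: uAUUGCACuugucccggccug
mmu-miR-25-3p: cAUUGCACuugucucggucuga
mmu-miR-19b-3p: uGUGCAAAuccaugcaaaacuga
mmu-miR-29b-3p: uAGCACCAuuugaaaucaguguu
mmu-miR-294-3p: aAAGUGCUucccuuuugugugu
The first pair shares a seed, as do miR-92a-3p and miR-25-3p. The seed of miR-294-3p shares a run of 6 letters (AAGUGC) with that of miR-17-5p, shifted by a base. The miR-17 sequence lies at chr14:115043684-115043706 on the plus strand, in a cluster that also encodes miR-20a at chr14:115044183-115044205. The miR-294 sequence lies at chr7:3220691-3220712 on the plus strand and miR-25 at chr5:138165332-138165353 on the minus strand.

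On the same build the members lie at chr2:128126038-128162547 (Bcl2l11), chr7:16308398-16318334 (Bbc3), chr18:66458604-66465558 (Pmaip1), chr7:45461695-45466903 (Bax), chr17:27019812-27028627 (Bak1), chr1:106538176-106714290 (Bcl2), chr2:152758732-152833803 (Bcl2l1) and chr3:95656944-95663179 (Mcl1). Each gene has a single count per library, so coding and untranslated regions are not separated. The deposited gene lengths (2124 bases for Bbc3 and 9157 for Bcl2, for example) are shorter than these spans. Whether reads in introns were counted is not given. Bak1 overlaps Ggnbp1, which held 431 to 1256 counts per library in experiment 1 and 509 to 914 in experiment 2, against 1321 to 3548 and 1577 to 2230 for Bak1. The split of reads between these neighbours is not stated, so the values of Bak1 are uncertain to that extent. Bcl2l1 overlaps Cox4i2 (6 to 137 counts over both experiments) and Bcl2l11 overlaps Acoxl (4 to 32 counts in experiment 2).

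Libraries held 12587257 to 23657840 counts in experiment 1 and 16296447 to 21026552 in experiment 2. Tnrc6a mRNA stood 294-fold and 206-fold higher in IP than in input of tagged cells and 0.91-fold and 0.86-fold in untagged cells, in experiments 1 and 2. In Trim71KO cells that ratio was 162-fold and 157-fold, and in Ago2KO cells 181-fold. Its Trim71-dependent log2 change was -0.86 (edgeR adjusted p 0.0476) in experiment 1 and -0.40 (adjusted p 0.542) in experiment 2. In experiment 1 its tagged and Trim71KO IP libraries overlapped, and Trim71KO inputs lay above tagged inputs. The part of this in the changes of the members was not tested. Ago2 mRNA in input fell from 353 to 162 CPM in Ago2KO cells (log2 change -1.12, edgeR adjusted p 2.52e-08). Trim71 mRNA did not fall in libraries labelled Trim71KO (241 to 282 CPM and 282 to 377 CPM), so the RNA does not check that label. All 8 markers of embryonic stem cells were present, at a summed 6305 to 8776 CPM in inputs. Mitochondrially encoded RNA made up 1.06% to 2.06% of counts in inputs and 0.236% to 1.37% in IP libraries. No pair of replicates was identical or agreed within sampling noise.

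In input RNA the anti-apoptotic Mcl1 and the pore former Bax were the most abundant members, and Bcl2 was close to undetected. To compare genes, values were divided by gene length (CPM per kilobase, with CPM scaled by TMM factors). In tagged cells of experiment 1 these levels were 145 for Mcl1, 119 for Bax, 52.5 for Bak1, 27.6 for Pmaip1, 8.33 for Bcl2l1, 7.05 for Bbc3, 2.69 for Bcl2l11 and 0.067 for Bcl2, and no neighbours in that order overlapped between libraries. In tagged cells of experiment 2 the order was Mcl1 at 197.6 ± 4.87 (SD, n = 3), Bax at 103 ± 6.60, Pmaip1 at 48.5 ± 4.24, Bak1 at 43.9 ± 1.94, Bbc3 at 17.3, Bcl2l1 at 5.81, Bcl2l11 at 4.38 and Bcl2 at 0.067. Pmaip1 and Bak1 overlapped there, as they did in untagged cells of experiment 2. Mcl1, Bax and Bcl2 kept the first, second and last place in all 7 genotype and experiment combinations. Bcl2 was counted 1 to 23 times per library, so its fold changes rest on few reads.

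**Figure D1:**
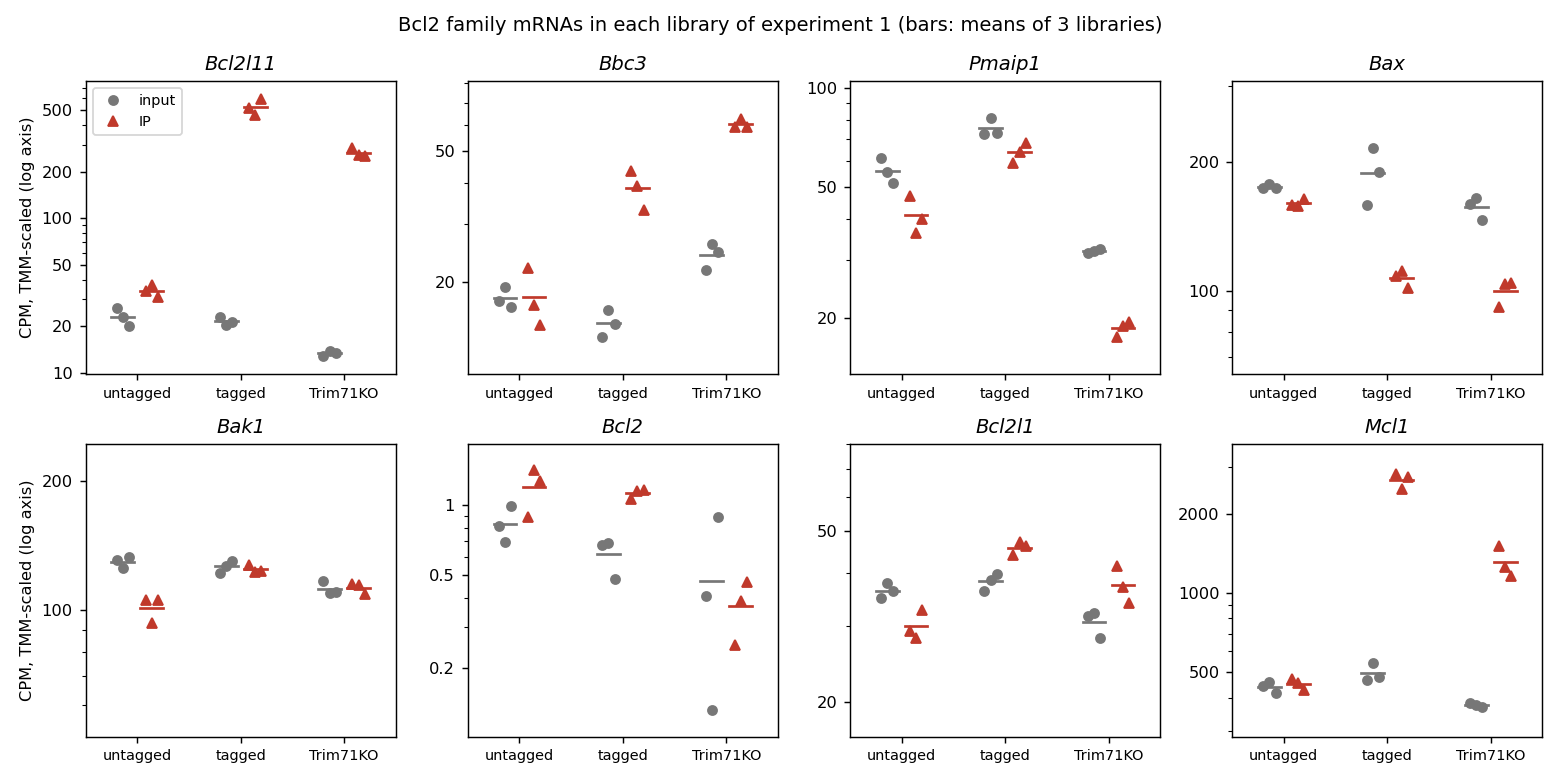
Each panel plots 1 gene in experiment 1, with TMM-scaled CPM on a log axis against genotype, circles for input libraries, triangles for IP libraries and bars for the mean of 3. For Bcl2l11 the tagged IP libraries (465 to 594 CPM) and Trim71KO IP libraries (251 to 283 CPM) sit far above every input, while Bax triangles sit below its circles in the tagged and Trim71KO cells.

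Bcl2l11 mRNA, encoding the BH3-only protein Bim, was the member most strongly bound to tagged Tnrc6a. In experiment 1 it stood at 23.0, 20.5 and 21.3 CPM in tagged input and at 517, 465 and 594 CPM in tagged IP. In untagged cells it stood at 26.1, 23.0 and 20.0 CPM in input and at 33.7, 37.0 and 31.2 CPM in IP. Tagged and untagged inputs overlapped, whereas every tagged IP library lay above every untagged one. The IP over input ratio was 24.4-fold in tagged and 1.47-fold in untagged cells. Their ratio, the tag-specific enrichment, was 16.6-fold (log2 4.05, SE 0.16, 95% interval 3.73 to 4.37, adjusted p 3.59e-16). In experiment 2, Bcl2l11 stood at 519.9, 420.2 and 349 CPM in tagged IP against 38.4, 34.4 and 32.9 CPM in tagged input. Untagged IP held 30.4, 30.3 and 32.9 CPM and untagged input 33.3, 32.8 and 33.3 CPM, an IP over input ratio of 0.94-fold. The tag-specific log2 enrichment of 3.70 (SE 0.18) in experiment 2 is given as a description. Among all genes, the IP over input ratio of Bcl2l11 in tagged cells lay at percentile 99.4 in experiment 1 and 99.6 in experiment 2.

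Mcl1, the short-lived anti-apoptotic protein that binds Bim and Noxa, was the second of the members by enrichment. In experiment 1 its mRNA stood at 468, 539.9 and 479 CPM in tagged input and at 2831, 2484 and 2762 CPM in tagged IP. Untagged IP held 471, 455 and 427 CPM, overlapping untagged input at 441, 457 and 416 CPM. The tag-specific log2 enrichment of Mcl1 was 2.40 (SE 0.14, adjusted p 7.51e-13) in experiment 1. In experiment 2 tagged IP held 2481, 2218 and 1956 CPM and tagged input 657, 681 and 688 CPM. With untagged IP at 654, 677 and 671 CPM, the log2 enrichment was 1.72 (SE 0.10, adjusted p 4.17e-13). Tagged and untagged IP libraries of Mcl1 did not overlap in either experiment.

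Bbc3, which encodes the p53-induced BH3-only protein Puma, was enriched to a lesser degree. In experiment 1 tagged IP held 43.3, 39.1 and 33.0 CPM, tagged input 13.7, 16.4 and 14.9 CPM, and untagged IP 22.04, 17.05 and 14.82 CPM. Tagged IP lay above tagged input and both untagged groups, while tagged input lay below untagged input (17.5, 19.3 and 16.8 CPM). The tag-specific log2 enrichment was 1.35 (SE 0.18, adjusted p 1.10e-06). In experiment 2 the tagged IP held 69.4, 61.8 and 53.3 CPM, above untagged IP at 41.8, 40.5 and 42.2 CPM, and the enrichment was 0.70 (SE 0.12, adjusted p 5.24e-05).

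Bax mRNA was depleted from the tagged IP. In experiment 1 it stood at 108, 111 and 102 CPM in tagged IP and at 159, 158 and 164 CPM in untagged IP, without overlap, while the inputs overlapped. The tag-specific log2 change was -0.68 (SE 0.14, adjusted p 0.000143). In experiment 2 tagged IP held 132, 138 and 148 CPM and untagged IP 172, 178 and 185 CPM, again without overlap, and the change was -0.35 (SE 0.10, adjusted p 0.0104). Among all genes these changes of Bax lay at percentile 26.6 in experiment 1 and 18.0 in experiment 2. Of all genes 28.8% and 8.77% were called lower there.

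Bak1 and Bcl2l1 showed small tag-specific enrichments in experiment 1, that is, relative to untagged cells. The IP over input ratio of Bak1 was 0.986-fold in tagged and 0.781-fold in untagged cells. Its mean level in tagged IP thus did not exceed that in tagged input. For Bcl2l1 the ratio was 1.198-fold in tagged and 0.828-fold in untagged cells. Bak1, the other pore former, held 128, 123 and 124 CPM in tagged IP and 106, 93.1 and 105 CPM in untagged IP (log2 enrichment 0.34, SE 0.11, adjusted p 0.0111). Bcl2l1, which encodes Bcl-xL, held 44.0, 47.1 and 46.2 CPM in tagged IP and 29.3, 28.2 and 32.7 CPM in untagged IP (0.53, SE 0.13, adjusted p 0.00144). For both, tagged and untagged IP libraries separated in experiment 1. They overlapped in experiment 2, where the enrichment was 0.044 for Bak1 (adjusted p 0.775) and 0.21 for Bcl2l1 (adjusted p 0.187).

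Pmaip1, which encodes Noxa, and Bcl2 did not pass the test in either experiment. Pmaip1 had log2 enrichments of 0.21 (adjusted p 0.209) in experiment 1 and -0.19 (adjusted p 0.180) in experiment 2. With library size alone the value of Pmaip1 in experiment 2 was -0.40 and passed (adjusted p 0.0110). Bcl2 had 0.35 (SE 0.59, adjusted p 0.633) and 1.21 (SE 0.56, adjusted p 0.112). Bcl2 was counted at most 23 times in any library.

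Over the 8 members, tag-specific enrichment was called higher for 5 and lower for 1 in experiment 1, where 56.9% of all genes tested were called either way (28.1% higher, 28.8% lower). The median log2 enrichment was 0.44 over the 8 members and -0.10 over all genes. In experiment 2, 2 of the 7 tested members were called higher and 1 lower, where 27.7% of all genes were called (18.9% higher, 8.77% lower). Of the calls over all genes in experiment 2, 68.4% were higher, and 36.5% when counts were scaled by library size alone. Whether the counts of calls in the family differ from these backgrounds was not tested. The enrichment differed between the experiments for 4 of the 7 tested members, where 28.5% of all genes did. As experiment 2 minus experiment 1 in a joint fit, Mcl1 was lower by a log2 difference of -0.79 (SE 0.18, adjusted p 0.000956), Bbc3 by -0.76 (SE 0.22, adjusted p 0.00898), Pmaip1 by -0.51 (SE 0.16, adjusted p 0.0168) and Bak1 by -0.40 (SE 0.13, adjusted p 0.0241). The median over all genes was -0.053.

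**Figure D2:**
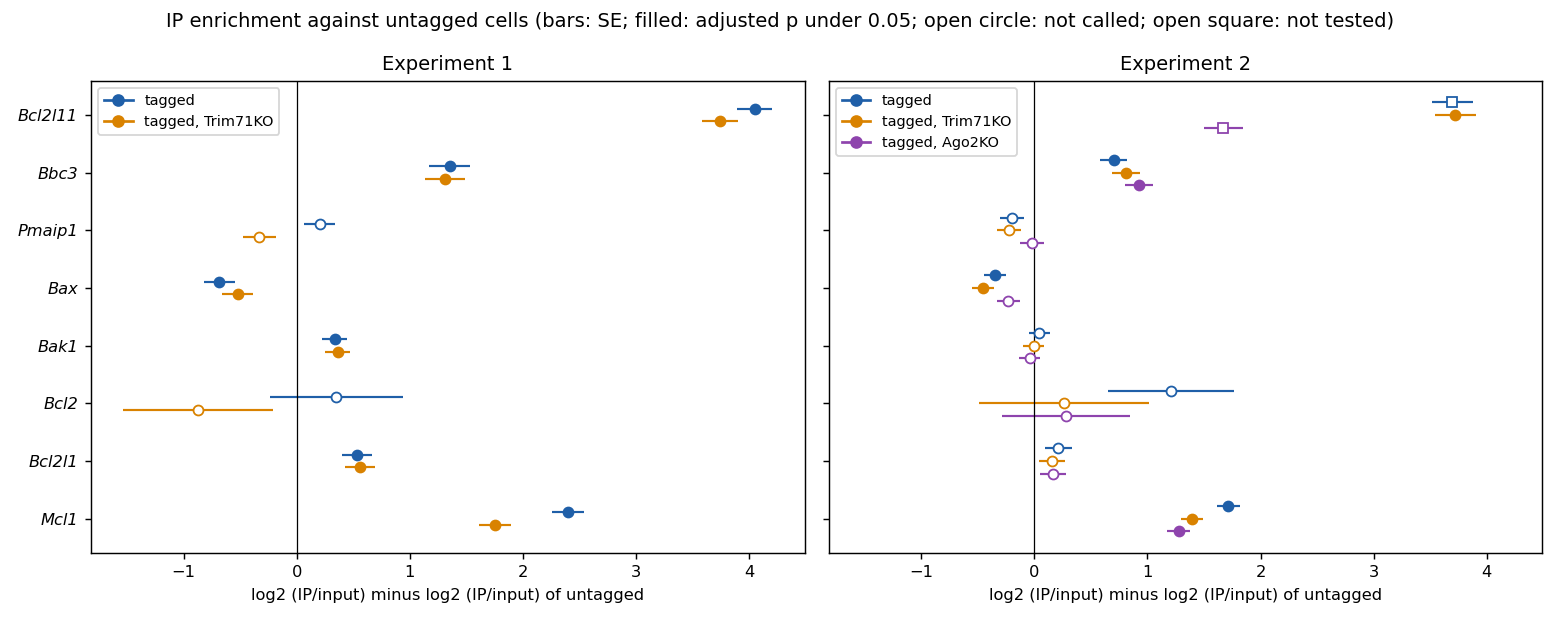
Log2 IP over input of each member relative to untagged cells is plotted for tagged, Trim71KO and Ago2KO cells, with experiment 1 on the left and experiment 2 on the right. Bars are SE, filled symbols passed the test and open squares are the untested Bcl2l11 values, of which the Ago2KO one (1.67) stands well left of the tagged one (3.70).

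Without Ago2, Bcl2l11 kept a part of its association with Tnrc6a, and Mcl1 was the one tested member whose association fell. Ago2KO IP held 166, 127 and 109 CPM of Bcl2l11, and Ago2KO input held 44.2, 43.3 and 46.4 CPM. Each Ago2KO IP library lay below each tagged IP library, and each Ago2KO input lay above each tagged input. The IP over input ratio was 2.997-fold in Ago2KO cells against 12.2-fold in tagged cells. Its Ago2-dependent log2 change of -2.03 chose the gene and is no independent finding. Relative to untagged cells a log2 enrichment of 1.67 (SE 0.17) remained. By replicate number the ratios were 3.75, 2.92 and 2.34 in Ago2KO cells and 13.5, 12.2 and 10.6 in tagged cells.

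Mcl1 stood at 1715, 1416 and 1561 CPM in Ago2KO IP and at 606, 649 and 682 CPM in Ago2KO input. The Ago2KO IP libraries lay below all tagged IP libraries, and the inputs overlapped. The Ago2-dependent log2 change was -0.44 (SE 0.10, 95% interval -0.65 to -0.23, adjusted p 0.00835). Its adjusted p was 0.0543 (log2 change -0.33) when counts were scaled by library size alone and 0.0691 (log2 change -0.46) when only the tagged and Ago2KO groups entered the fit. Relative to untagged cells Mcl1 kept a log2 enrichment of 1.28 (SE 0.10, adjusted p 2.38e-10).

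The remaining 6 tested members did not pass the test for a change without Ago2. Bbc3 stood at 67.7, 54.1 and 60.6 CPM in Ago2KO IP, overlapping tagged IP, with a change of 0.22 (95% interval -0.027 to 0.47, adjusted p 0.460). Its enrichment over untagged cells was 0.92 without Ago2 (SE 0.12, adjusted p 1.46e-06). Changes were 0.17 for Pmaip1, 0.12 for Bax, -0.085 for Bak1, -0.93 for Bcl2 (SE 0.55) and -0.051 for Bcl2l1, with adjusted p-values of 0.516 to 0.928. Thus 1 of 7 tested members was called, where 4.16% of all genes were called either way and 3.77% as lower. Of those calls 9.25% were higher, and 26.1% with scaling by library size alone. Including Bcl2l11, the median of the 8 members was -0.068 and that over all genes 0.0026. Since Bcl2l11 was chosen on this comparison, that median is a description. Without Ago2, 2 of 7 tested members stayed called as enriched over untagged cells and 0 as depleted (20.9% of all genes called by edgeR, 15.8% higher and 5.11% lower, and 57.3% of calls higher with library size alone against 75.6%). Bax was at -0.23 there (adjusted p 0.110), and it was called lower with RLE (-0.27, adjusted p 0.0496), library size alone (-0.33, adjusted p 0.0449), only the compared groups (-0.24, adjusted p 0.0310) and DESeq2 (-0.27, adjusted p 0.0367).

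Without Trim71, Bcl2l11 still ranked among the most enriched RNAs, with an IP over input ratio at percentile 99.7 of all genes in both experiments, while both its input and its IP level were lower than in tagged cells. In experiment 1 Trim71KO input held 12.77, 13.96 and 13.37 CPM and Trim71KO IP 283, 258 and 251 CPM, all below the matching tagged libraries. The IP over input ratio was 19.7-fold against 24.4-fold in tagged cells. The Trim71-dependent log2 change was -0.30 (SE 0.15, 95% interval -0.62 to 0.014, adjusted p 0.365), an interval that reaches a loss of 0.62 on the log2 scale. In experiment 2 Trim71KO input held 21.1, 18.5 and 18.2 CPM and Trim71KO IP 256, 227 and 235 CPM, again below all tagged libraries. The ratio was 12.4-fold against 12.2-fold, a log2 difference of 0.024 (SE 0.17) that is given as a description. Relative to untagged cells the enrichment without Trim71 was 3.75 (SE 0.16, adjusted p 3.00e-15) in experiment 1 and 3.72 (SE 0.18, 95% interval 3.35 to 4.09, adjusted p 1.95e-14) in experiment 2, where neither group had been used to choose the gene. Trim71KO and tagged cells were both set against the same untagged libraries in these values.

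Mcl1 and Pmaip1 were called as having a lower IP over input ratio without Trim71 in experiment 1. Of these, Pmaip1 had not been called as enriched in tagged cells. Mcl1 stood at 1504, 1254 and 1154 CPM in Trim71KO IP and at 381, 376 and 369 CPM in Trim71KO input, all below the tagged libraries. Its Trim71-dependent log2 change was -0.64 (SE 0.14, adjusted p 0.00763) in experiment 1. In experiment 2 it stood at 1727, 1843 and 1842 CPM in IP, below tagged IP, with inputs that overlapped, and the change of -0.32 (SE 0.10, adjusted p 0.112) did not pass. The change of Mcl1 in experiment 2 passed with DESeq2 (-0.34, adjusted p 0.0486) and without tagged IP replicate 3 (-0.40, adjusted p 0.0282).

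Pmaip1 stood at 17.5, 18.8 and 19.4 CPM in Trim71KO IP and at 31.5, 31.9 and 32.3 CPM in Trim71KO input of experiment 1. Tagged cells held 59.3, 63.9 and 67.9 CPM in IP and 72.5, 80.8 and 73.0 CPM in input, so both fractions were lower without Trim71. The log2 change of the ratio was -0.53 (SE 0.14, adjusted p 0.0334), and the IP over input ratio was below 1 in both genotypes (0.84 tagged, 0.58 Trim71KO). That call of Pmaip1 was lost in 7 of 12 fits that left out a library, namely tagged input replicate 3, any Trim71KO input replicate, tagged IP replicate 2 or 3, or Trim71KO IP replicate 2. It was lost as well under RLE scaling (-0.50, adjusted p 0.0549), library size alone (-0.43, adjusted p 0.137) and another TMM reference library (-0.46, adjusted p 0.0983). In experiment 2 the change of Pmaip1 was -0.028 (adjusted p 0.942).

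In all, 2 of 8 members were called lower without Trim71 in experiment 1, where 3.74% of all genes were called either way and 3.47% as lower. In experiment 2, 0 of 7 tested members were called by edgeR (1 at an unadjusted p under 0.05 and 1 by DESeq2, Mcl1 in both), where 1.49% of all genes were. By edgeR 0 of the 7 differed between the experiments in this change (1 at an unadjusted p under 0.05), and 0.0967% of all genes did. Among all genes called without Trim71, 7.25% were higher in experiment 1 (24.6% with library size alone, 21.3% with the other TMM reference). In experiment 2 that share was 50.5% (75.7% and 27.2% under those scalings). The change of Bbc3 was -0.043 (adjusted p 0.946) in experiment 1 and 0.11 (adjusted p 0.732) in experiment 2. Relative to untagged cells, Trim71KO cells had 6 of 8 members called in experiment 1 (54.9% of all genes) and 4 of 8 in experiment 2 (38.7%). Bcl2l11, Bbc3 and Mcl1 were higher and Bax lower in both.

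Setting the 2 knockout genotypes directly against each other, 0 of 7 tested members differed in IP enrichment by edgeR (1 at an unadjusted p under 0.05, 0 by DESeq2, and 11.8% of all genes called). The log2 difference of Trim71KO minus Ago2KO was 0.12 (95% interval -0.089 to 0.32, adjusted p 0.529) for Mcl1. For Bax it was -0.22 (95% interval -0.43 to -0.017, adjusted p 0.166). Bcl2l11 stood at 2.05 (SE 0.17), a description, and its Trim71KO IP libraries lay above its Ago2KO IP libraries.

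**Figure D3:**
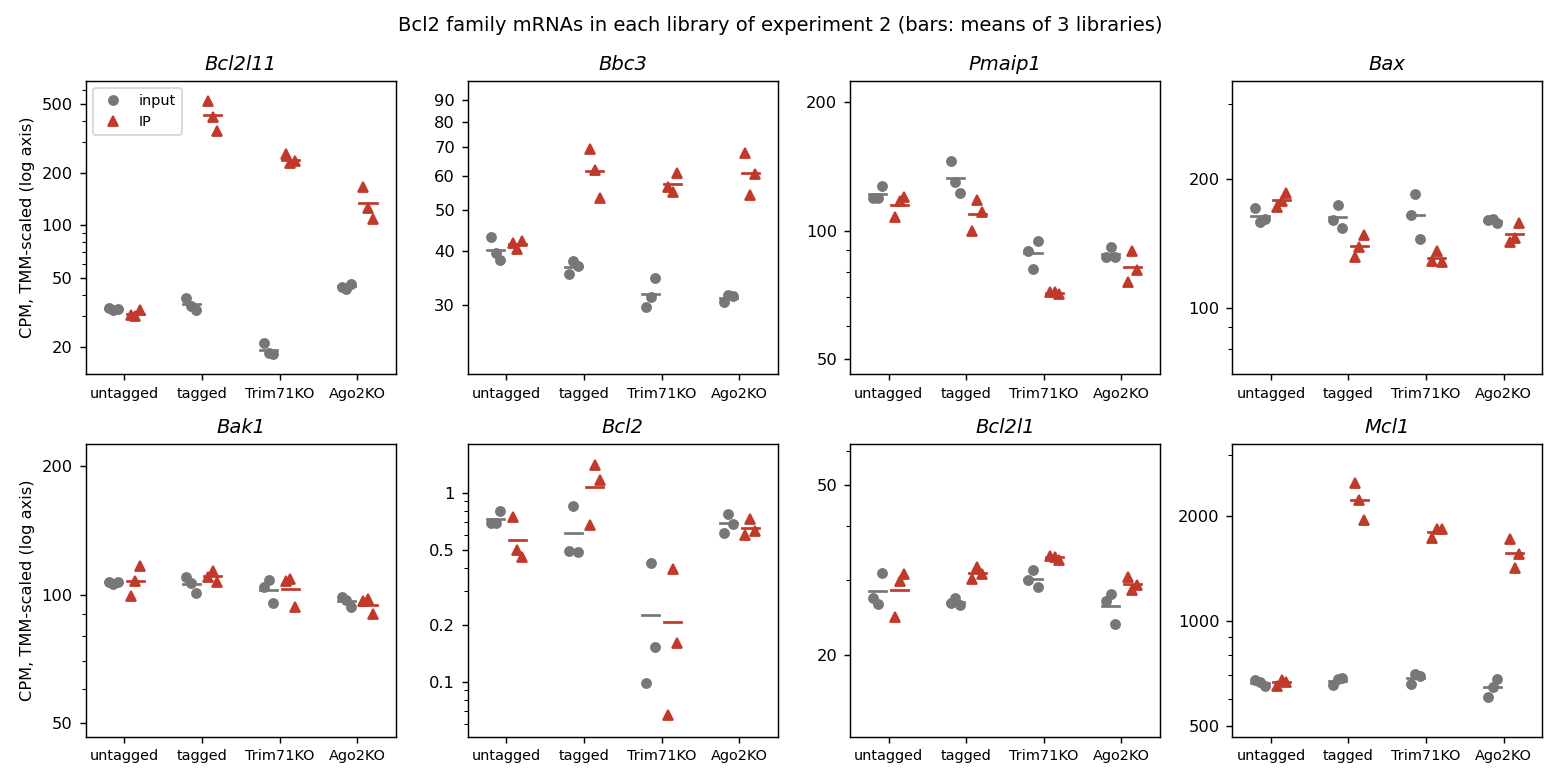
Each panel plots 1 gene in experiment 2, with TMM-scaled CPM on a log axis against genotype, circles for input libraries, triangles for IP libraries and bars for the mean of 3. Bcl2l11 triangles step down from tagged (349 to 519.9 CPM) over Trim71KO (227 to 256 CPM) to Ago2KO (109 to 166 CPM), whereas Bbc3 triangles overlap across the 3 tagged genotypes. Bcl2l11 circles are lower in Trim71KO as well, and its IP over input ratio was 12.2-fold in tagged and 12.4-fold in Trim71KO cells. Bcl2l11 was chosen from the tagged and Ago2KO libraries, so its values there are a description.

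In input RNA of Trim71KO cells of experiment 1 the BH3-only mRNAs moved in different directions. In experiment 2 Pmaip1, Bcl2l11 and Bbc3 all stood below tagged input, with Bbc3 not called and Bcl2l11 not tested there. Pmaip1 was lower in both experiments. In experiment 1 its 3 Trim71KO inputs (31.5 to 32.3 CPM) lay below tagged inputs (72.5 to 80.8 CPM) and untagged inputs (61.0, 55.6 and 51.3 CPM). The log2 change against tagged input was -1.24 (SE 0.10, adjusted p 3.06e-09). In experiment 2 it stood at 89.6, 81.2 and 94.5 CPM in Trim71KO input against 145, 129.7 and 123 CPM in tagged input (-0.58, SE 0.075, adjusted p 1.20e-06). The drop was larger in experiment 1, with a difference of 0.65 between the experiments (SE 0.11, adjusted p 7.82e-05).

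Bcl2l11 was lower in Trim71KO than in tagged input of experiment 1 by a log2 change of -0.69 (SE 0.12, adjusted p 8.02e-05). Against untagged input it was lower in experiment 1 (-0.79, SE 0.11, adjusted p 2.11e-05) and in experiment 2 (-0.78, SE 0.13, adjusted p 4.30e-05). In experiment 2 the value against tagged input was -0.87 (SE 0.13), a description. In both experiments the 3 Trim71KO inputs lay below all tagged and untagged inputs.

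Bbc3 had opposite signs in the 2 experiments. In experiment 1 Trim71KO input held 21.7, 26.0 and 24.7 CPM, above tagged input (log2 change 0.69, SE 0.13, adjusted p 0.000234) and above untagged input (0.44, SE 0.12, adjusted p 0.0141). In experiment 2 it held 29.7, 31.2 and 34.6 CPM, below tagged input at 35.3, 38.0 and 36.9 CPM (-0.21, SE 0.088, adjusted p 0.0805) and below untagged input at 43.1, 39.7 and 38.1 CPM (-0.34, SE 0.087, adjusted p 0.00400). Against tagged input in experiment 2, Bbc3 was called lower with library size alone (-0.27, adjusted p 0.00952), with only the compared groups (-0.21, adjusted p 0.0478) and without Trim71KO input replicate 3 (-0.27, adjusted p 0.0419). The difference between the experiments against tagged input was -0.90 (SE 0.16, adjusted p 6.80e-05). The call against untagged input in experiment 1 was lost without untagged input replicate 1 or 3 or Trim71KO input replicate 2 or 3 (log2 0.38 to 0.42, adjusted p 0.0522 to 0.0751).

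In Trim71KO against tagged input, Bax, Bak1, Mcl1 and Bcl2l1 changed less than Pmaip1 and Bcl2l11. In experiment 1 Mcl1 (-0.40, SE 0.10, adjusted p 0.00355), Bcl2l1 (-0.32, SE 0.093, adjusted p 0.0114) and Bax (-0.26, SE 0.095, adjusted p 0.0367) were called lower in Trim71KO than in tagged input. Bax libraries overlapped between those groups, and its call was lost with library size scaling (-0.21, adjusted p 0.104), with only the compared groups in the fit (-0.25, adjusted p 0.0907), and without tagged input replicate 2 or 3 or any Trim71KO input replicate. The call of Bcl2l1 was lost without Trim71KO input replicate 3 (-0.26, adjusted p 0.0761). Bak1 was at -0.17 (adjusted p 0.0875). In experiment 2 Mcl1 was at 0.024 (adjusted p 0.845), Bax at 0.016 (adjusted p 0.894) and Bcl2l1 at 0.18 (adjusted p 0.109), which passed with the other TMM reference library (0.22, adjusted p 0.0400). The difference between the experiments was 0.42 for Mcl1 (SE 0.12, adjusted p 0.0125) and 0.49 for Bcl2l1 (SE 0.12, adjusted p 0.00259).

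Bcl2 was called lower in Trim71KO input of experiment 2, on very few reads. It was counted 2, 8 and 3 times in Trim71KO input and 10, 16 and 10 times in tagged input, or 0.098, 0.42 and 0.15 CPM against 0.49, 0.85 and 0.48 CPM. The log2 changes were -1.43 (SE 0.48, adjusted p 0.0278) against tagged, -1.69 (SE 0.47, adjusted p 0.00749) against untagged and -1.61 (SE 0.47, adjusted p 0.0106) against Ago2KO input. The first was lost without tagged input replicate 2 (-1.12, adjusted p 0.141), Trim71KO input replicate 1 (-1.07, adjusted p 0.136) or Trim71KO input replicate 3 (-1.22, adjusted p 0.102). Without Trim71KO input replicate 1 the other 2 were lost as well (-1.33 with adjusted p 0.0533 and -1.26 with adjusted p 0.0687). In experiment 1 Bcl2 was counted 7, 3 and 20 times in Trim71KO input, and its change against tagged input was -0.35 (SE 0.46, adjusted p 0.589).

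In Ago2KO input Pmaip1 was the one tested member that changed. It stood at 86.7, 91.4 and 86.9 CPM, below all tagged inputs (log2 change -0.59, SE 0.074, adjusted p 7.41e-06). Its levels in Ago2KO and Trim71KO input overlapped, with a difference of 0.0017 (95% interval -0.15 to 0.16, adjusted p 0.991). Bcl2l11 in Ago2KO input stood above tagged input by 0.34 (SE 0.12), a description. Bbc3 was at -0.24 (SE 0.088, adjusted p 0.108) with scaling by TMM. Scaling by library size alone gave Bbc3 -0.27 (adjusted p 0.0340), and fitting only the compared groups gave -0.25 (adjusted p 0.0138). Mcl1 was at -0.065 (adjusted p 0.685) and Bcl2l1 at -0.031 (adjusted p 0.892).

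Counting members, 6 of 8 were called between Trim71KO and tagged input in experiment 1 (5 lower and 1 higher, with 34% of all genes called, 17.4% lower and 16.5% higher) and 3 of 8 against untagged input (20.4%). The latter count was 7 when only the compared groups were fitted. In experiment 2, 2 of 7 tested members were called against tagged input (27.2%) and 4 of 8 against untagged input (29.1%). Ago2KO against tagged input gave 1 of 7 (6.96%) and Trim71KO against Ago2KO input gave 1 of 7 (28.4%). The median change of the 8 members in Trim71KO against tagged input of experiment 1 was -0.34, against -0.0078 over all genes. Tagged and untagged inputs differed for 1 of 8 members in experiment 1, Pmaip1 (0.43, SE 0.095, adjusted p 0.00604, 10.6% of all genes), and for 0 of 7 in experiment 2 by edgeR (0 at an unadjusted p under 0.05 and 0 by DESeq2, with 1.39% of all genes called). The change in input differed between the experiments for 4 of 7 tested members (22.8%).

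Markers of other cell types moved with the genotype in the same inputs. Over all genes, 34% and 20.4% were called in Trim71KO against tagged and untagged input of experiment 1, and 27.2% and 29.1% in experiment 2. All 7 primitive endoderm markers were called lower in each of these comparisons. Their summed level was 66.2 to 88.5 CPM in tagged and 10.9 to 12.6 CPM in Trim71KO inputs of experiment 1, and 21.8 to 25.4 CPM and 7.28 to 8.79 CPM in experiment 2. In Ago2KO inputs it was 9.05 to 11 CPM, and 5 of 7 were called lower than in tagged inputs (6.96% of all genes called). Of 8 embryonic stem cell markers, 3 were called higher in Trim71KO than in tagged input in experiment 1 and 5 in experiment 2. Against untagged input 6 and 5 were called higher, and 0 were called lower in any of these. In Ago2KO against tagged input 4 were called higher and 1 lower. Of 4 feeder cell markers 2 had a row, both above the floor of 3 counts per library, and their sum was 22.7 to 24.5 CPM in tagged and 58.0 to 61.8 CPM in Trim71KO inputs of experiment 1. In experiment 2 it was 34.2 to 35.8 CPM, 49.5 to 51.9 CPM and, in Ago2KO inputs, 29.9 to 35.1 CPM. The 3 neuroectoderm markers summed to 17.2 to 20.4 CPM in tagged and 12.1 to 14.6 CPM in Trim71KO inputs of experiment 1. In experiment 2 they summed to 21.4 to 23.7 CPM and 12.3 to 17.0 CPM. Of the 3 markers, 1 was called lower in Trim71KO than in tagged input of each experiment. The mesendoderm markers, 2 of 4 with a row in experiment 1 and all 4 in experiment 2, summed to 4.78 to 5.29 CPM in tagged and 6.34 to 8.30 CPM in Trim71KO inputs of experiment 1. In experiment 2 they summed to 11.4 to 13.3 CPM in tagged, 12.8 to 15.8 CPM in Trim71KO and 13.8 to 15.4 CPM in Ago2KO inputs. The part of these cells in the levels of Pmaip1, Bcl2l11 and the other members was not tested. In these bulk samples fewer cells of a type and less RNA per cell cannot be told apart.

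**Figure D4:**
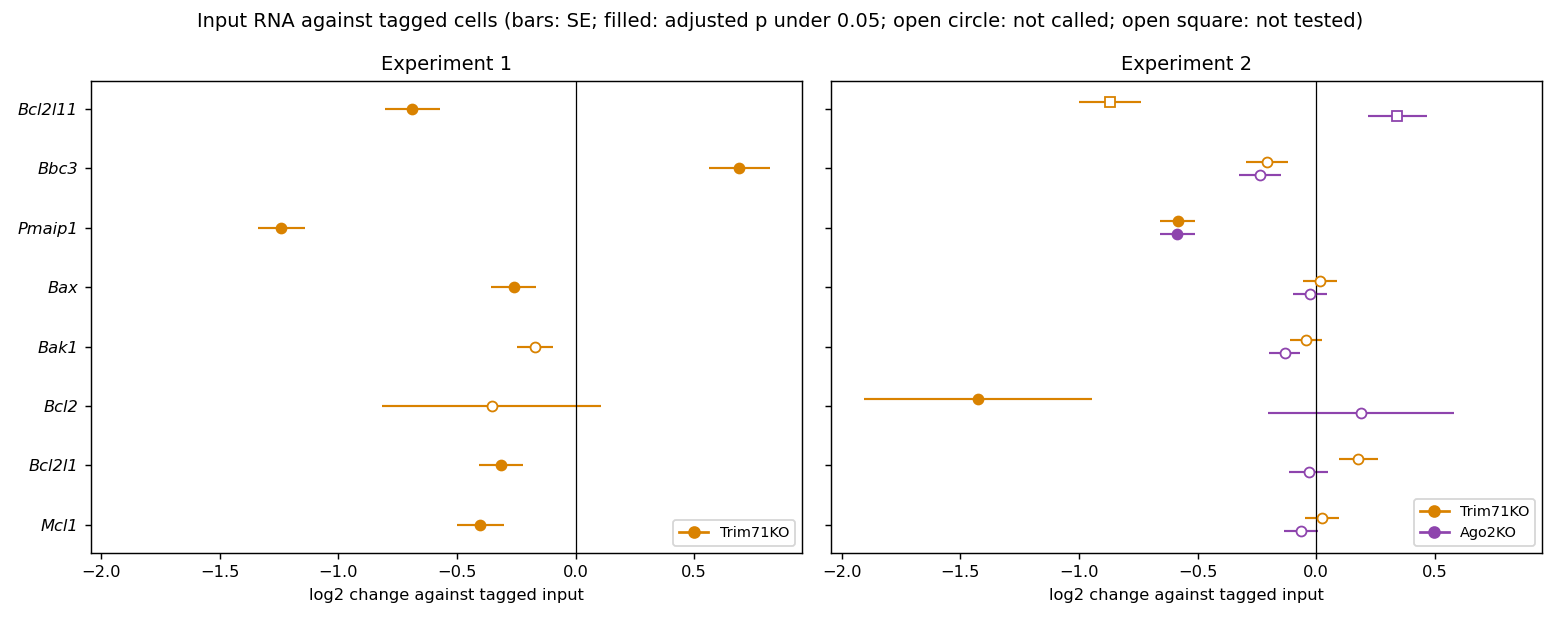
Log2 change of each member in Trim71KO and Ago2KO input against tagged input is plotted for experiment 1 on the left and experiment 2 on the right, with bars for SE, filled symbols for changes that passed the test and open squares for untested values. Pmaip1 lies left of 0 in all 3 comparisons (-1.24, -0.58 and -0.59), and Bbc3 lies on opposite sides of 0 in the 2 experiments for Trim71KO.

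The rest of the Bcl2 family and the caspase arm of the mitochondrial pathway were followed as 2 lists. Of 15 other Bcl2 family genes 10 had a row, and all 19 genes of the caspase arm had one. In experiment 1, tag-specific enrichment was called higher for 4 of the 10 other family genes, namely the BH3-only genes Hrk (log2 0.61), Bmf (0.57) and Bid (0.51), and Bcl2l13 (0.49). It was called lower for Bcl2l2, an anti-apoptotic gene (-0.85). Over all genes 28.1% were called higher and 28.8% lower there. Their median was 0.42, near that of the 8 members. In experiment 2, Bmf alone of the 10 was called (0.42, SE 0.11, adjusted p 0.00646), where 27.7% of all genes were. With library size alone Bmf was not called (0.21, adjusted p 0.121) and Bcl2l2 was called lower (-0.42, adjusted p 0.00252). Bcl2l2 was called lower with RLE too (-0.24, adjusted p 0.0300), and Hrk was called higher with the other TMM reference (0.58, adjusted p 0.0424).

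In the caspase arm 5 of 19 genes were called higher and 7 lower in experiment 1, and 5 higher and 5 lower in experiment 2. Over all genes 28.1% were higher and 28.8% lower in experiment 1, and 18.9% and 8.77% in experiment 2. With library size alone the counts of the caspase arm in experiment 2 were 2 higher and 8 lower. The 5 that were higher were the same in both experiments. They were the initiator caspases Casp2 and Casp9, Apaf1 (the apoptosome scaffold), the caspase inhibitor Xiap, and its antagonist Diablo. Casp2 stood at 22.2 ± 5.19 CPM (SD, n = 3) in tagged input and at 797 ± 91.8 CPM in tagged IP of experiment 1, with a log2 enrichment of 5.49 (SE 0.22, adjusted p 8.49e-16). Xiap had 2.17, Casp9 1.26, Diablo 1.10 and Apaf1 1.05 in experiment 1, and 1.499, 0.52, 0.48 and 0.51 in experiment 2. In experiment 2 the calls of Casp9 (0.31, adjusted p 0.0508), Diablo (0.26, adjusted p 0.0755) and Apaf1 (0.30, adjusted p 0.115) were lost with library size alone. The genes called lower in both experiments were Cycs (cytochrome c), the mitochondrial channels Vdac1 and Vdac2, the protease Htra2, and Birc5. The median of the 19 was -0.21 in experiment 1 and -0.083 in experiment 2, against -0.10 and -0.031 over all genes.

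In the Ago2-dependent comparison 0 of 10 other family genes and 0 of 19 caspase arm genes were called by edgeR (2 and 3 at an unadjusted p under 0.05), where 4.16% of all genes were called. Casp2 passed with the other TMM reference library (-0.75, adjusted p 0.0460). Casp2 stood at 386 ± 109 CPM in tagged IP, 238 ± 70.9 CPM in Ago2KO IP and 446 ± 11.9 CPM in Trim71KO IP of experiment 2. Its enrichment over untagged cells was 4.01 in tagged and 3.28 in Ago2KO cells. Between the knockout genotypes, 3 of 19 caspase arm genes and 1 of 10 other family genes were called in IP enrichment (11.8% of all genes). They were Casp2 (0.90, adjusted p 0.00651), Casp9 (0.56, adjusted p 0.00260), Apaf1 (0.54, adjusted p 0.00832) and Bmf (0.35, adjusted p 0.0399). All were higher in Trim71KO than in Ago2KO cells, as were 75.7% of the calls over all genes. The call of Bmf was lost under RLE scaling (0.35, adjusted p 0.0500), library size alone and the other TMM reference. Without Trim71 in experiment 1, Endog was called (0.50, adjusted p 0.0474) and no other gene of either list, where 3.74% of all genes were called. In Trim71KO against tagged input of experiment 1, the caspase arm had 6 of 19 genes called lower and 1 higher (17.4% and 16.5% of all genes). The lower ones were Cycs (-0.78), Birc5 (-0.45), Endog (-0.40), Vdac2 (-0.35), Aifm1 (-0.32) and Birc2 (-0.28), and the higher one was Apaf1 (0.39). Of the other family genes 2 of 10 were called there, Bmf and Bcl2l13 (0.37), both higher. In experiment 2 the caspase arm had Casp6 (-0.54) and Birc2 (-0.20) called lower, and the other family genes Bmf and Bid (0.21) higher and Hrk (-0.48) lower (27.2% of all genes called). The call of Bid was lost with library size alone (0.14, adjusted p 0.162) and that of Birc2 with the other TMM reference (-0.15, adjusted p 0.0821). Bmf was higher in Trim71KO than in tagged cells in both experiments (0.74, adjusted p 6.96e-05, and 0.25, adjusted p 0.0177), the second lost with library size alone (0.19, adjusted p 0.0602). Its 3 Trim71KO inputs lay at 38.9 to 41.7 CPM against 18.1 to 28.6 CPM in tagged inputs of experiment 1.

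The genes whose profile over the 14 group means was most like that of Bcl2l11 were Msl1 (Pearson r 0.992), Rfx4 (0.990), Dnajb2 (0.990), Pou4f1 (0.989) and Pbx3 (0.989). They were ranked among 11565 genes with a mean log2 CPM of at least 2 in both experiments, on log2 CPM centred within each experiment. The points share libraries and depth, and the order depends on the measure, since Pou4f1 stood at rank 154 by Spearman correlation. The IP over input ratio of Rfx4 was 19.5-fold in tagged, 24.8-fold in Trim71KO and 9.45-fold in Ago2KO cells of experiment 2. That of Msl1 was 4.44-fold, 3.60-fold and 2.36-fold. Tagged and Ago2KO libraries entered the likeness, so these ratios are a description. Among the members Mcl1 came closest to Bcl2l11 at r 0.972 (rank 210, and rank 2370 by Spearman correlation at 0.71), and Bax had the most opposed profile at -0.873.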

How the data were processed

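For either experiment the authors deposited a gene table of raw counts, RPKM values that were not used here, and a gene length column whose name refers to QuasR, per the file headers. Per the submitters' processing notes, bcl2fastq 2.20, STAR 2.7.3a and the build GRCm38 (mm10) were used. The counting settings, strand included, are not given in the sources used here. Counts were fitted with edgeR 4.0.16 (R 4.3.3) by TMM, filterByExpr and the quasi-likelihood F test, with all groups of an experiment in one fit, and adjusted by Benjamini-Hochberg over 18772 and 19778 genes. A gene is called at an adjusted p under 0.05. IP comparisons are interactions, the log2 IP over input ratio of a genotype minus that of its reference. Differences between experiments come from a joint fit over 18620 genes, in which experiment and any batch cannot be told apart. The fits were tested on simulated data.

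Libraries were grouped by their titles and experiments by their descriptions. Same-numbered libraries deviated together, with every correlation over 0.1, only between tagged and Trim71KO cells of experiment 2 (0.198 to 0.290 in input, 0.180 to 0.324 in IP). There the Trim71-dependent comparison called 295 genes, and 470 with replicate number as a block. Members and lists were chosen with earlier results of these data known. The genes named are the 8 members, the targeted and tagged genes, list members that were called, and the 5 genes most like Bcl2l11. Alternatives were DESeq2 1.42.0, RLE or library size scaling, no filter, fewer groups, blocks, and leaving out each library with genes and scaling factors kept. Intervals cover the spread between libraries, and reads without molecular identifiers are not independent molecules.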

Additional observations from a re-analysis of the deposited data

Results flagged for a closer look

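The members below had an effect that differed between the experiments by a test of the difference itself (joint edgeR fit, experiment 2 minus experiment 1, 3 libraries per group). In tag-specific IP enrichment, Mcl1 differed by -0.7883 (adjusted p 0.000956), Bbc3 by -0.7569 (adjusted p 0.00898), Pmaip1 by -0.5056 (adjusted p 0.0168) and Bak1 by -0.397 (adjusted p 0.0241). In input RNA of Trim71KO against tagged cells, Bbc3 differed by -0.9017 (adjusted p 6.80e-05), Pmaip1 by 0.6534 (adjusted p 7.82e-05), Bcl2l1 by 0.4898 (adjusted p 0.00259) and Mcl1 by 0.4206 (adjusted p 0.0125). Bbc3 is the one of these whose input change was called higher in experiment 1 and had the opposite sign in experiment 2. Mcl1 and Bcl2l1 were called lower in experiment 1 and had positive values in experiment 2 that were not called. The groups of 3 libraries are too small for a search for single outlying samples.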

How the results depend on the processing

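No called result reversed under any alternative run. Of the member values under an alternative setting, 1062 were unchanged, 26 newly passed and 7 no longer passed. Unchanged values include the untested ones of Bcl2l11, which have no threshold and stayed within the spread of their libraries. Among fits that left out a library the numbers were 1217, 9 and 22. Members called for Trim71-dependent IP enrichment in experiment 1 (2) became 1 with RLE, library size alone or tagged IP 1 as the TMM reference library, the last chosen after seeing the data, and 1 to 2 when a library was left out. In experiment 2 that count (0) was 1 with DESeq2 and 0 to 1 with a library left out. For Ago2-dependent enrichment 1 became 0 with library size alone or only the compared groups. For Trim71KO against Ago2KO IP it was 0 to 1 with a library left out. In input, Trim71KO against untagged of experiment 1 went from 3 to 7 with only the compared groups, Ago2KO against tagged from 1 to 2 with library size alone or only the compared groups, and Trim71KO against Ago2KO from 1 to 2 with DESeq2, no filter, RLE, only the compared groups or the other TMM reference (Bcl2l1 passed), and 0 to 2 with a library left out. Trim71KO against tagged of experiment 2 (2) gave 2 to 3 over the settings and 1 to 2 with a library left out. Tag-specific enrichment in experiment 2 went from 3 to at most 4 (Pmaip1 with library size alone) and without Ago2 from 2 to at most 3 (Bax). The causes were not tested. Over all genes, the 295 calls for the Trim71-dependent change in experiment 2 became 470 and 522 with a replicate block, 489 with library size alone, 541 with DESeq2 and 136 with only the compared groups. Fits with a replicate block, within a fraction or by culture, changed no call of a member: Mcl1 gave -0.6537 and -0.6545 for the Trim71-dependent change in experiment 1. Library size alone shifted the median gene of experiment 2 to -0.236 in tag-specific enrichment, where 36.5% of calls were higher against 68.4%, and to 0.110 in the Ago2-dependent comparison (26.1% against 9.25%). The share of higher calls moved likewise with library size alone for input of Trim71KO (34.6% against 49.6%, 60.2% with the other TMM reference) and Ago2KO (51.1% against 63%) against tagged cells in experiment 2, and for tagged against untagged input in experiment 1 (35.3% against 53.9%). Bcl2 is limited by depth, with at most 23 counts per library.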
